A study of Mus musculus with 2 samples.

Results

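The ephrin, Eph, semaphorin, plexin, neuropilin, Slit, Robo, netrin and Unc5 genes encode secreted and cell-surface guidance cues and the receptors that bind them. The entries described here were chosen by gene symbol alone, as every entry of the deposited mRNA-seq table whose symbol belongs to one of these 9 families, whatever its level or status. They numbered 67 of 29126 entries, of which 20906 carried a gene symbol. Of the 67, 35 were ligands (8 ephrins, 20 semaphorins, 3 Slits and 4 netrins) and 32 were receptors or co-receptors (13 Eph receptors, 9 plexins, 2 neuropilins, 4 Robo receptors and 4 Unc5 receptors), and they lay on 19 chromosomes.

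The samples were 1 library of Dnmt1+/+ mouse embryonic fibroblasts (MEFs) and 1 library of Dnmt1-/- MEFs, sequenced as strand-specific mRNA with 50 bp reads. Dnmt1 encodes the maintenance methyltransferase that copies CG methylation onto newly replicated DNA. By the study's own account the cells written as Dnmt1-/- carry a hypomorphic Dnmt1 allele on both chromosomes, and both the Dnmt1+/+ and the Dnmt1-/- cells lack p53 (Trp53). The lines were compared to learn how genes behave in hypomethylated somatic cells, and the labels give the strain as unknown. With 1 library per genotype the spread between replicates is unknown and no test was made, and the effect of Dnmt1 cannot be told apart from any other difference between the 2 cultures.

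Guidance molecules were first known for steering growing axons, and they also act between many non-neuronal cells, where they govern adhesion, migration and the boundaries between tissues. Ephrins are tethered to the cell surface and signal to Eph receptor tyrosine kinases on a neighbouring cell, and the ephrin can itself signal backwards into its own cell. Semaphorins signal through plexins, with neuropilins as co-receptors for most secreted class 3 members; Slits bind Robo receptors; and netrins bind Dcc, neogenin and the Unc5 receptors.

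Levels are given as RPKM (reads scaled to transcript length and to the mapped reads of the library), which is a value per length and so allows levels of different genes to be set beside each other. A change is log2(RPKM + 0.1) in Dnmt1-/- minus the same in Dnmt1+/+ MEFs, a scale on which the change of a gene near 0 RPKM comes out too small. Because RPKM hold no read counts, no counting error or floor could be attached to a gene, and a value of 0 is given as listed at 0. A gene was counted as higher or lower when its change was more than 2-fold, among genes that the authors' status column marked OK and that reached 1 RPKM in either library.

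Dnmt1 itself stood at 65.2 RPKM in the Dnmt1+/+ library and 14.5 RPKM in the Dnmt1-/- library, a log2 change of -2.16. Of 14 fibroblast markers, 12 reached 1 RPKM in Dnmt1+/+ and 11 in Dnmt1-/- MEFs. Thy1 did so only in Dnmt1+/+ MEFs, at 4.84 RPKM against 0.129 RPKM in Dnmt1-/- MEFs. Fap, under 1 RPKM in both, was at 0.0315 RPKM in Dnmt1+/+ and listed at 0 in Dnmt1-/- MEFs. The summed RPKM of the fibroblast list was 6569 in Dnmt1+/+ and 5089.7 in Dnmt1-/- MEFs. Of its 12 genes kept, 2 were higher (Pdgfra and S100a4) and 4 lower (Thy1, Postn, Fn1 and Col1a2). Among all 11244 genes kept, 8.47% were higher and 10.9% lower. The summed levels of 6 lists of markers of other cell types (endothelial, epithelial, macrophage, myogenic, neural crest and glial, and neuronal) ranged from 2.06 to 29.3 RPKM in Dnmt1+/+ and from 2.42 to 47.2 RPKM in Dnmt1-/- MEFs. In bulk RNA, fewer cells of a type and less RNA per cell cannot be told apart.

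Guidance genes were expressed widely in these fibroblasts, and their changes ran in both directions. Of the 67 entries, 57 had the status OK and 40 were kept with 1 RPKM or more in either library. Among the 40, 6 genes passed 2-fold upwards in Dnmt1-/- MEFs (Sema6b, Sema3b, Sema7a, Unc5b, Nrp2 and Epha2) and 10 downwards (Sema3e, Epha4, Plxnb1, Efnb2, Robo1, Unc5c, Sema3a, Sema6c, Efna1 and Ephb6), with 24 inside that range. Over all 11244 genes kept in the table, 8.47% were called higher and 10.9% lower, or 952 and 1225 genes. The median log2 change of the 40 guidance genes was -0.24 with quartiles of -0.92 and 0.61, beside a median of -0.14 with quartiles of -0.56 and 0.27 over all genes. On a scale from which the all-gene median of -0.14 was subtracted, the median of the guidance genes was -0.10. Ligands and receptors were called in like numbers, with 3 higher and 5 lower of 22 ligands kept and 3 higher and 5 lower of 18 receptors kept.

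Of the 40 genes, 34 reached 1 RPKM in both libraries. Epha4, Sema3e, Plxnb1 and Sema6c, 4 genes in all, did so only in Dnmt1+/+ MEFs, and Sema6b and Sema7a, 2 genes, only in Dnmt1-/- MEFs. The summed RPKM of the 57 genes with status OK came to 458 in the Dnmt1+/+ and 482 in the Dnmt1-/- library (ratio 1.05).

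**Figure D1:**
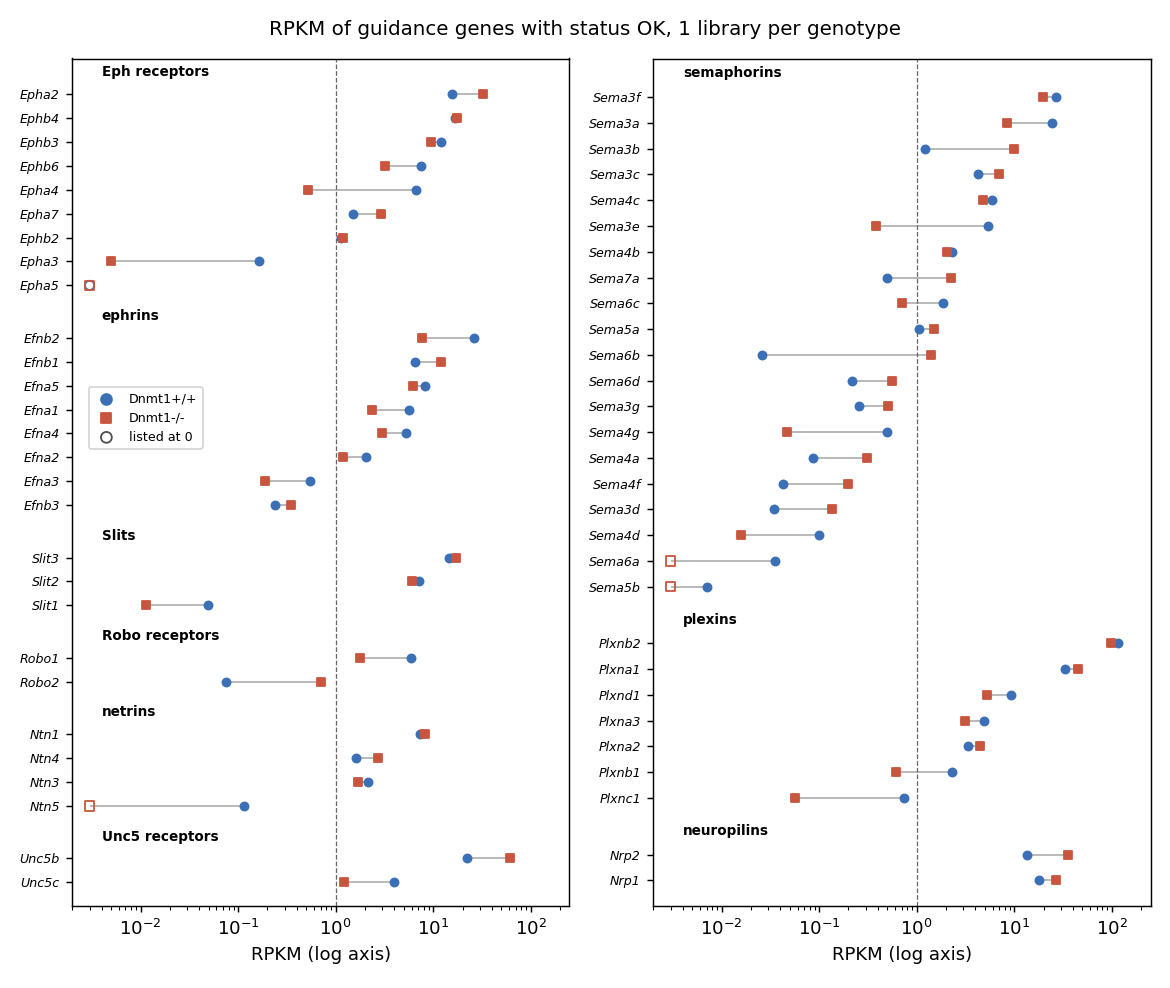
RPKM (log axis) of the 57 guidance genes with status OK in the Dnmt1+/+ library (blue circles) and the Dnmt1-/- library (red squares), grouped by family and ordered by the higher of the 2 values; open symbols at the left edge are values listed at 0 and the dashed line marks 1 RPKM. Plxnb2 was the highest in both libraries at 116 and 99.3 RPKM. Among the 40 genes kept, Epha4, Sema3e, Sema3b and Sema6b changed by more than 4-fold on the scale with 0.1 RPKM added. The RPKM drawn here, with nothing added, also give long lines to genes under 1 RPKM, such as Epha3 (0.162 and 0.00491 RPKM) and Plxnc1 (0.736 and 0.0571 RPKM).

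**Figure D2:**
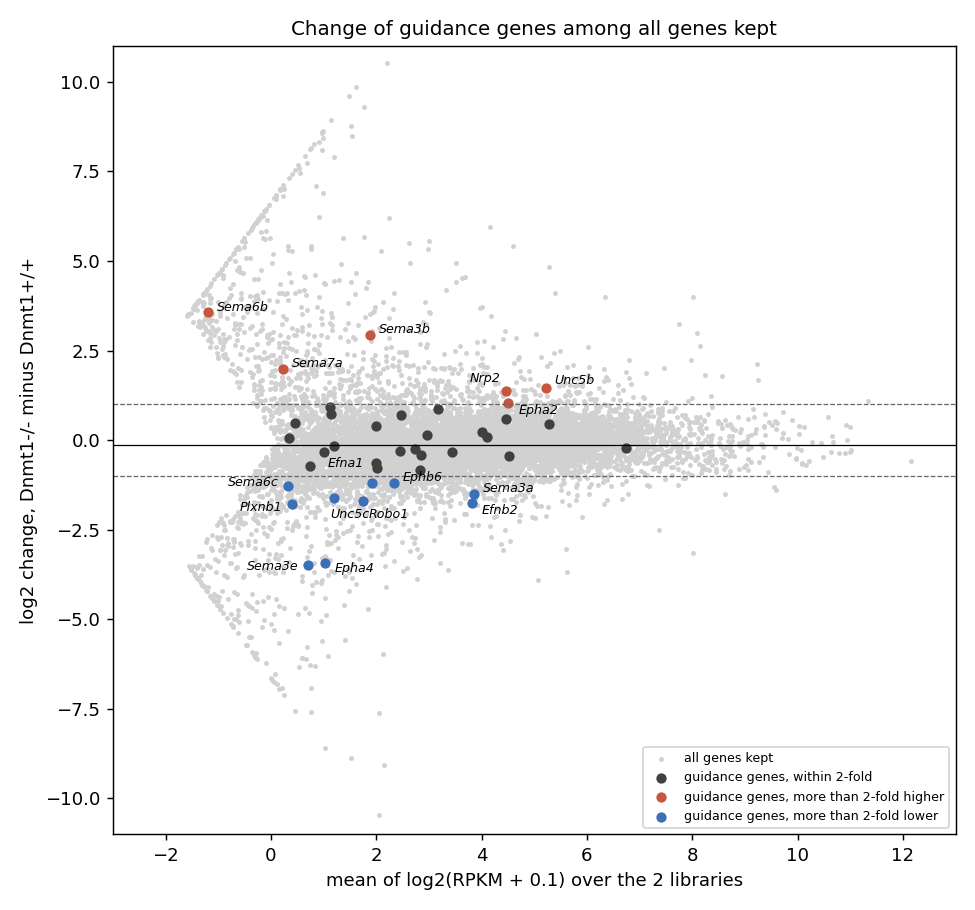
Log2 change between the libraries (Dnmt1-/- minus Dnmt1+/+) against the mean log2(RPKM + 0.1) for the 11244 genes kept (grey) and the 40 guidance genes among them (coloured by call); dashed lines mark 2-fold and the solid line the all-gene median of -0.14. Unc5b, Nrp2, Epha2, Efnb2 and Sema3a lie at high levels, while Sema6b lies at the low edge of the cloud, where a gene passes the minimum only through 1 library.

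The 2 largest falls and the 2 largest rises for which a promoter was at hand are shown by their sequences. This ranking depends on the 0.1 RPKM added, since each of the 4 genes reached 1 RPKM in 1 library only, and with 1 RPKM added Unc5b and Nrp2 were the 2 largest rises with a promoter. DNA methylation in mammals falls on the cytosine of the dinucleotide CG, and the number of CGs before a start site sets how many such sites a promoter offers. For each gene the 250 bases just before the start of transcription are given 5′ to 3′ on the gene's strand, from RefSeq in build GRCm38.p6, with every CG in capitals. Sema3e (chr5:14025026-14025275, plus strand) held 7 CGs and Epha4 (chr1:77515089-77515338, minus strand) 14. Sema6b (chr17:56140344-56140593, minus strand) held 20 CGs and Sema7a (chr9:57939862-57940111, plus strand) 17.
Sema3e: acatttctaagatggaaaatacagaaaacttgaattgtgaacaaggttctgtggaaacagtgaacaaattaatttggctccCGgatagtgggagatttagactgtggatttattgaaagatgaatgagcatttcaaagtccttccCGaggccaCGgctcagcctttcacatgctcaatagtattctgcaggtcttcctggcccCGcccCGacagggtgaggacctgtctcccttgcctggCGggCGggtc
Epha4: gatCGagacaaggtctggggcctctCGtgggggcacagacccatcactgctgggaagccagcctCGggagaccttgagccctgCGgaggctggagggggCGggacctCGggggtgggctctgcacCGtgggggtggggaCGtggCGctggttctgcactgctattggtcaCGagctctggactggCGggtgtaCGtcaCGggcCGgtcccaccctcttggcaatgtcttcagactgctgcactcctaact
Sema6b: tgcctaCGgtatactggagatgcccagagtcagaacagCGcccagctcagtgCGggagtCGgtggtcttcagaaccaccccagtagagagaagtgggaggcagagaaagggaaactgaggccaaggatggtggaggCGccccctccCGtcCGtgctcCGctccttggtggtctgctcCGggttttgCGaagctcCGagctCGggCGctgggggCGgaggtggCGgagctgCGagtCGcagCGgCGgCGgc
Sema7a: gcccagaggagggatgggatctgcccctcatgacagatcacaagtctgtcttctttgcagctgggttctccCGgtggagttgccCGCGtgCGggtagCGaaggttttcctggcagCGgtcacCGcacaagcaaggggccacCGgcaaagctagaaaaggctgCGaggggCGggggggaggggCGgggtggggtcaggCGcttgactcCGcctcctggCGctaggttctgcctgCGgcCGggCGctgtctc
The Sema3e promoter had a GC content of 48% and the other 3 a GC content of 66% to 66.4%.

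Among the 67 guidance genes, 58 had such a window, and Sema3b, Efnb3, Plxna1, Ntn1, Unc5d, Sema3f, Slit1, Sema6a and Plxna4 did not. Where a gene had several windows, the one with the most CGs was taken. The 58 windows held a median of 17 CGs (2 to 46), and 24 of them (41.4%) held 20 or more. Over all 32851 windows of the RefSeq table the median was 6 and 17.9% held 20 or more, and over the 27025 symbols with one window each, chosen in the same way, 19.7% did. The 5 genes called higher with a window held a median of 20 CGs (9 to 32). The 10 called lower held a median of 16.5 (2 to 30), and the 21 within 2-fold held a median of 20 (7 to 39). These ranges overlapped from 9 to 30 CGs. The fewest CGs among the genes called were the 2 of Sema3a and the 7 of Sema3e, both lower, and the most were the 32 of Nrp2, which was higher, and the 30 of Plxnb1, which was lower. The deposited Sema3a locus began at 13291505 on chromosome 5 in mm9, downstream of the GENCODE start of the gene at 13125593. Its window lay at 13396534-13396783 in GRCm38.p6. For its neighbours Sema3d and Sema3e, the window ended just before the mm9 GENCODE start, so positions in the builds can be compared here. The Sema3a window thus lay inside the measured locus, downstream of both starts. Its 2 CGs do not describe the sequence before the start of that locus. These counts describe sequence only, and methylation at these promoters was not analysed here.

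**Figure D3:**
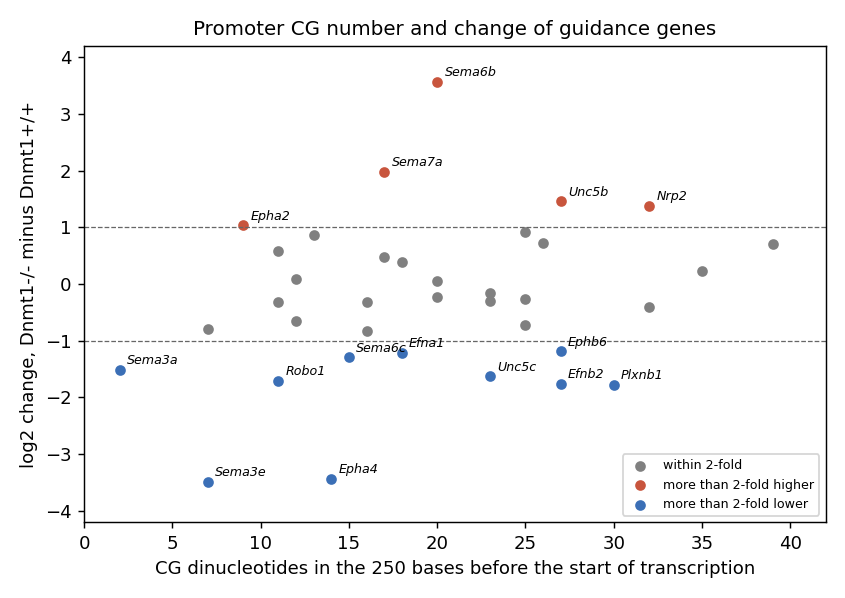
Log2 change (Dnmt1-/- minus Dnmt1+/+) against the number of CG dinucleotides in the 250 bases before the start of transcription, 1 point per guidance gene with a window, coloured by call, with dashed lines at 2-fold. The ranges of the genes called higher (9 to 32 CGs), lower (2 to 30 CGs) and within 2-fold (7 to 39 CGs) overlap from 9 to 30 CGs.

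The summed level of the ephrins was lower in Dnmt1-/- MEFs. Of 8 ephrin genes 6 were kept, with 0 called higher, 2 lower and 4 within 2-fold. Among the 11244 genes kept in all, 8.47% were called higher, 10.9% lower, and 9067 lay within 2-fold. The 8 ephrin genes summed to 54.5 RPKM in Dnmt1+/+ against 32.9 RPKM in Dnmt1-/- MEFs. Efnb2 encodes the transmembrane ligand ephrin-B2, known as a marker of arterial endothelium and a partner of Ephb4. It lay on chromosome 8 at 8617434-8661239 (minus strand; gene coordinates are from GENCODE in mm9), and stood at 26.02 RPKM in Dnmt1+/+ and 7.62 RPKM in Dnmt1-/- MEFs, a log2 change of -1.76. Efna1 (chromosome 3, 89075655-89085064, minus strand), a GPI-anchored ligand preferred by Epha2, stood at 5.61 and 2.37 RPKM, a log2 change of -1.21.

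Efnb1, the X-linked ephrin-B1 gene, went the other way without passing 2-fold, at 6.55 RPKM in Dnmt1+/+ and 12.04 RPKM in Dnmt1-/- MEFs (log2 change 0.87). With it the leading ephrin differed between the libraries: Efnb2 made up 47.8% of the summed ephrin RPKM in Dnmt1+/+ MEFs, and Efnb1 36.6% in Dnmt1-/- MEFs. On the X chromosome, Xist was at 0.00648 RPKM in Dnmt1+/+ and 37.0 RPKM in Dnmt1-/- MEFs, while the Y-linked Ddx3y was at 13.9 RPKM in Dnmt1+/+ and listed at 0 in Dnmt1-/- MEFs. The 2 lines thus differed in these sex-linked transcripts as well as in Dnmt1. The part of this difference in the value of Efnb1, the X-linked plexins or any other guidance gene was not tested. It cannot be told apart from the part of Dnmt1.

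The ephrin-A ligands summed to 21.7 and 12.9 RPKM, and all 4 kept were below their Dnmt1+/+ value. Efna5, the most abundant of them, was at 8.23 and 6.21 RPKM, Efna4 at 5.21 and 2.96 RPKM, and Efna2 at 2.05 and 1.19 RPKM, each within 2-fold. Efna3 and Efnb3 stayed under 1 RPKM, Efna3 at 0.551 and 0.190 RPKM and Efnb3 at 0.237 and 0.352 RPKM. Efna1, Efna3 and Efna4 are neighbours on chromosome 3, with gaps of 34.0 kb and 10.5 kb between them, and all 3 values were lower in Dnmt1-/- MEFs. Efna3, Efna4 and Efnb3 overlap entries without a gene symbol, and since it is not stated whether strand was used in assigning reads, their values are uncertain.

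Among the Eph receptors, the EphA members shifted from a mixture of Epha2 and Epha4 to Epha2 nearly alone. Epha4 is a receptor known for binding both A and B ephrins and for repelling motor and corticospinal axons. It lay on chromosome 1 at 77363760-77511663 (minus strand) and stood at 6.61 RPKM in Dnmt1+/+ and 0.521 RPKM in Dnmt1-/- MEFs, a log2 change of -3.43. Epha2, a receptor frequent in epithelia and in tumours (chromosome 4, 140857155-140885299, plus strand), stood at 15.6 and 32.2 RPKM, a log2 change of 1.04. Epha2 thereby made up 65.4% of the summed EphA level in Dnmt1+/+ and 90.4% in Dnmt1-/- MEFs, within sums of 23.9 and 35.6 RPKM. Epha7 stood just short of 2-fold, at 1.49 and 2.91 RPKM (log2 change 0.92).

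The EphB receptors summed to 37.3 and 31.6 RPKM. Ephb4, the receptor of ephrin-B2, was close to equal in the libraries at 16.6 and 17.6 RPKM, unlike its ligand Efnb2. Ephb3 was at 12.01 and 9.58 RPKM and Ephb2 at 1.14 and 1.20 RPKM. Ephb6 (chromosome 6, 41555481-41570508, plus strand), which lacks kinase activity, was the 1 EphB gene called, at 7.48 and 3.23 RPKM (log2 change -1.19). Over the family, 1 receptor was higher, 2 were lower and 4 were within 2-fold. The shares over the 11244 genes kept were 8.47% higher and 10.9% lower. Epha3 was under the minimum at 0.162 and 0.00491 RPKM, Epha5 was listed at 0 in both libraries, and of the 4 Eph receptors without the status OK, Epha6, Epha10 and Ephb1 were listed at 0 in both and Epha8 was at 0.00325 RPKM in Dnmt1+/+ and listed at 0 in Dnmt1-/- MEFs.

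On the scale with 0.1 RPKM added, the semaphorins held the 3 largest rises and the largest fall of the 40 genes. With 1 RPKM added, Epha4 (-2.32) fell further than Sema3e (-2.20), and Unc5b (1.43) and Nrp2 (1.33) rose further than Sema6b (1.22) and Sema7a (1.12). Of 20 semaphorin genes, 11 were kept, of which 3 were higher, 3 lower and 5 within 2-fold. Among all 11244 genes kept, 8.47% were higher and 10.9% lower. Class 3 semaphorins, the secreted ones, made up most of the family's RPKM, with sums of 62.4 in Dnmt1+/+ and 46.1 in Dnmt1-/- MEFs. Sema3e, a ligand that acts directly on Plxnd1 without a neuropilin (chromosome 5, 14025276-14256689, plus strand), stood at 5.35 RPKM in Dnmt1+/+ and 0.387 RPKM in Dnmt1-/- MEFs, a log2 change of -3.49. Sema3a (chromosome 5, 13125593-13602565, plus strand), the collapsing factor of sensory growth cones and a ligand of Nrp1, stood at 24.4 and 8.53 RPKM, a log2 change of -1.51.

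Sema3b moved against them. The gene (chromosome 9, 107500005-107511560, minus strand), long studied as a candidate tumour suppressor, stood at 1.23 RPKM in Dnmt1+/+ and 10.1 RPKM in Dnmt1-/- MEFs, a log2 change of 2.94. Its neighbour Sema3f, 72.3 kb away and a ligand of Nrp2, was the most abundant semaphorin in both libraries at 26.8 and 19.5 RPKM, within 2-fold. Sema3c was at 4.26 and 6.99 RPKM. On chromosome 5, Sema3a and Sema3e lie 422 kb apart and both were lower, while Sema3d, 703 kb on the other side of Sema3a, was under the minimum at 0.0346 and 0.134 RPKM. Sema3g was likewise under it, at 0.259 and 0.505 RPKM.

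The membrane-bound semaphorins were present at lower levels. Class 6 exchanged its main member: Sema6c (chromosome 3, 94964379-94977946, plus strand) was at 1.86 and 0.704 RPKM (log2 change -1.28), while Sema6b (chromosome 17, 56262508-56279766, minus strand) was at 0.0262 and 1.39 RPKM (log2 change 3.57). Sema6c made up 87.0% of the class 6 sum in Dnmt1+/+ and Sema6b 52.5% in Dnmt1-/- MEFs, with sums of 2.14 and 2.65 RPKM. Both belong to a class of transmembrane proteins that bind A plexins. Sema7a, the GPI-anchored class 7 semaphorin that can act through integrins (chromosome 9, 57787920-57810671, plus strand), was at 0.492 and 2.24 RPKM, a log2 change of 1.98.

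Of classes 4 and 5, the genes kept were within 2-fold. Sema4c was at 5.94 and 4.81 RPKM, Sema4b at 2.31 and 2.06 RPKM, and Sema5a at 1.05 and 1.51 RPKM. Sema4a, Sema4d, Sema4f, Sema4g and Sema6d stayed under 1 RPKM in both libraries, the highest being Sema6d at 0.216 and 0.556 RPKM and Sema4g at 0.497 and 0.0473 RPKM. Sema5b and Sema6a were listed at 0 in Dnmt1-/- MEFs, and stood at 0.00709 and 0.0351 RPKM in Dnmt1+/+ MEFs.

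The neuropilins, co-receptors of class 3 semaphorins and of VEGF, summed to 31.4 and 62.3 RPKM in the Dnmt1+/+ and Dnmt1-/- libraries, with a ratio of 1.98. Nrp2 (chromosome 1, 62749859-62865269, plus strand) stood at 13.6 and 35.5 RPKM, a log2 change of 1.38. Nrp1 stood at 17.8 and 26.8 RPKM, a log2 change of 0.58. The order of the pair was thus reversed, with Nrp1 at 56.8% of the sum in Dnmt1+/+ and Nrp2 at 57.0% in Dnmt1-/- MEFs. Of the best known ligands, Sema3a for Nrp1 was lower and Sema3f for Nrp2 was within 2-fold.

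Of 9 plexin genes, 7 had the status OK and 6 were kept, with 0 higher, 1 lower and 5 within 2-fold. Over all genes kept, 9067 of 11244 were within 2-fold. Plxnb2, a receptor of class 4 semaphorins, had the highest RPKM of all guidance genes at 116 and 99.3, above 95.4% and 94.0% of the genes kept, and it made up 68.3% and 62.7% of the summed plexin level. Plxnb1, the receptor of Sema4d (chromosome 9, 108997950-109022425, plus strand), was the gene called, at 2.33 RPKM in Dnmt1+/+ and 0.611 RPKM in Dnmt1-/- MEFs, a log2 change of -1.77. The A plexins, which pair with neuropilins, summed to 41.5 and 53.1 RPKM, most of it Plxna1 at 33.2 and 45.6 RPKM.

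Plxna2 was at 3.37 and 4.46 RPKM and the X-linked Plxna3 at 4.92 and 3.10 RPKM. Plxnd1, the receptor of Sema3e, was at 9.38 and 5.25 RPKM (log2 change -0.83), nearest to the threshold among the genes within 2-fold that were lower. Plxnc1, the receptor of Sema7a, did not reach the minimum, at 0.736 and 0.0571 RPKM. Plxna4 and the X-linked Plxnb3, both without the status OK, were listed at 0 in Dnmt1+/+ and at 0.00376 and 0.00257 RPKM in Dnmt1-/- MEFs.

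Among the Slits and their receptors, the ligands were close to equal in the libraries while the main receptor was lower. Slit3 was at 14.7 RPKM in Dnmt1+/+ and 17.3 RPKM in Dnmt1-/- MEFs and Slit2 at 7.21 and 6.02 RPKM, and Slit1 was under the minimum at 0.0494 and 0.0113 RPKM. The summed Slit level was 21.9 and 23.3 RPKM in the Dnmt1+/+ and Dnmt1-/- libraries. Robo1 (chromosome 16, 72663394-73046340, plus strand) was at 5.98 and 1.76 RPKM, a log2 change of -1.71. Robo2, 846 kb away on the same chromosome, stayed under 1 RPKM and was higher in value in Dnmt1-/- MEFs, at 0.0744 and 0.702 RPKM. Robo1 made up 98.8% of the summed Robo level in Dnmt1+/+ and 71.5% in Dnmt1-/- MEFs, with sums of 6.06 and 2.47 RPKM. Robo3, and Robo4 that is known from endothelium, were listed at 0 in both libraries.

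The 3 netrins kept were within 2-fold, while both Unc5 receptors kept passed it in opposite directions. Within 2-fold were 9067 of the 11244 genes kept in all. Ntn1 was at 7.33 and 8.18 RPKM, Ntn3 at 2.16 and 1.71 RPKM and Ntn4 at 1.62 and 2.74 RPKM, and the netrins together summed to 11.2 and 12.6 RPKM. The Ntn3 entry spanned 24312376-24346332 on chromosome 17, beyond the GENCODE gene at 24340793-24346332, so its value may not be that of Ntn3 alone. Ntn5 was at 0.114 RPKM in Dnmt1+/+ and listed at 0 in Dnmt1-/- MEFs. Unc5b, a repulsive and survival-dependence receptor for netrin (chromosome 10, 60225358-60294329, minus strand), was at 22.3 RPKM in Dnmt1+/+ and 61.7 RPKM in Dnmt1-/- MEFs, a log2 change of 1.46, and was the most abundant of the 6 genes called higher. Unc5c (chromosome 3, 141128528-141497888, plus strand) was at 3.93 and 1.21 RPKM, a log2 change of -1.63. The share of Unc5b in the summed Unc5 level was 85.0% in Dnmt1+/+ and 98.1% in Dnmt1-/- MEFs, with sums of 26.2 and 62.9 RPKM. Unc5d was listed at 0 in both libraries, and Unc5a was at 0.0282 RPKM in Dnmt1+/+ and listed at 0 in Dnmt1-/- MEFs.

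**Figure D4:**
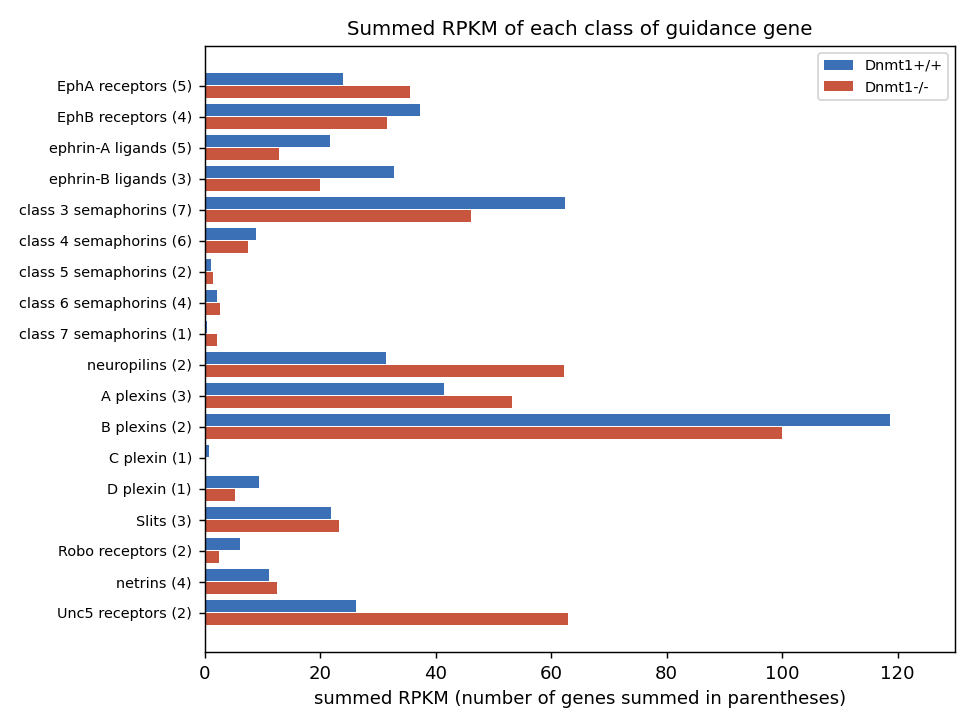
Summed RPKM of each class of guidance gene in the Dnmt1+/+ (blue) and Dnmt1-/- (red) libraries, over genes with status OK, with the number of genes summed in parentheses and no error bars, since each bar is 1 library. The neuropilin bars (31.4 and 62.3 RPKM) and the Unc5 bars (26.2 and 62.9 RPKM) are longer in Dnmt1-/- MEFs, and both ephrin classes are shorter.

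Several of the genes called are also known from endothelium, epithelium or macrophages, so the levels of those lists are given beside them. Of 10 endothelial markers, 1 (Flt1, 6.08 and 2.06 RPKM) reached 1 RPKM; the list summed to 6.66 and 2.80 RPKM, Erg and Tie1 were listed at 0 in both libraries, and Pecam1 was at 0.0119 and 0.0370 RPKM. The 9 epithelial markers found summed to 7.27 and 2.73 RPKM, with Krt19 at 6.90 and 0.326 RPKM, the joint entry of Krt14 and Krt17 at 0.0349 and 1.46 RPKM, and Esrp1 listed at 0 in both. The 10 macrophage markers summed to 2.36 and 13.1 RPKM. The 3 genes kept, Csf1r (0.0702 and 6.08 RPKM), Cd68 (0.596 and 3.63 RPKM) and Cd14 (1.51 and 3.23 RPKM), were called higher, beside 8.47% over all genes. Csf1r and Cd68 passed the minimum of 1 RPKM only through the Dnmt1-/- library. Fcer1g was lower in value, at 0.173 and 0.0781 RPKM, and Ptprc, Emr1 and Tyrobp were listed at 0 in both. The remaining lists summed to 29.3 and 47.2 RPKM for myogenic markers, to 2.06 and 2.42 RPKM for neural crest and glial markers, and to 20.9 and 14.6 RPKM for neuronal markers. Acta1 made up most of the myogenic sum (28.8 and 42.8 RPKM) and Tubb3 most of the neuronal one (16.9 and 12.9 RPKM). Of these lists Myf5 (0.106 and 3.28 RPKM) and Cdh19 (listed at 0, and 1.04 RPKM) were called higher and Stmn2 (2.19 and 0.0108 RPKM) lower, while Pax7, Foxd3, Dcx, Elavl4, Rbfox3 and Snap25 were listed at 0 in both libraries. The part of other cell types in the guidance gene values was not tested.

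A list of 94 co-receptor and signalling genes, which also holds some ligands and ectodomain proteases, had 92 found, in 93 entries. Of the entries, 74 were kept, with 8 higher, 9 lower and 57 within 2-fold. Over all 11244 genes kept, 8.47% were higher, 10.9% were lower and 9067 were within 2-fold. The median log2 change of the 74 was -0.13, beside -0.14 over all genes. Of 24 GTPases and their regulators kept, 5 were higher and 1 lower, and of 34 entries kept for kinases, adaptors and cytoskeletal effectors (Gsk3b has 2), 1 was higher and 6 lower. Of these, the higher Chn1, Ngef, Srgap1 and Fes passed the minimum of 1 RPKM only through the Dnmt1-/- library. The lower Tiam1 passed it only through the Dnmt1+/+ library. All 3 ectodomain proteases were within 2-fold. Of 6 semaphorin co-receptors kept 2 were higher and 0 lower, and of 7 netrin and repulsive guidance co-receptors and ligands kept 0 were higher and 2 lower.

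Among the entries kept, the 5 largest rises were those of Chn1, the Rac-directed GTPase-activating protein α-chimaerin that acts below EphA4 (0.0631 and 2.69 RPKM, log2 change 4.10), of Rnd1, encoding a small GTPase that binds plexins (8.84 and 32.3 RPKM, 1.86), of Ngef, encoding the Eph-bound exchange factor ephexin (0.733 and 2.89 RPKM, 1.84), of Srgap1, encoding a Slit-Robo GTPase-activating protein (0.799 and 2.26 RPKM, 1.39), and of the proteoglycan gene Cspg4 (4.35 and 10.9 RPKM, 1.31). Among the entries kept, the 5 largest falls were those of the Rac exchange factor gene Tiam1 (7.80 and 0.0546 RPKM, log2 change -5.67), the kinase gene Pak3 (10.2 and 1.52 RPKM, -2.67), the actin-binding protein gene Ablim1 (11.4 and 1.77 RPKM, -2.62), the repulsive guidance molecule gene Rgma (6.88 and 1.63 RPKM, -2.01) and the semaphorin mediator gene Crmp1 (3.98 and 1.35 RPKM, -1.49). Of the other netrin receptors, Dcc was listed at 0 in both libraries, and Neo1, which encodes neogenin and also binds Rgma, was at 29.9 and 37.8 RPKM.

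Without the minimum of 1 RPKM, 10 of the 57 guidance genes with status OK were past 2-fold on the higher side and 15 on the lower side. Over the 14865 entries with status OK and a symbol, 9.92% were higher and 11.1% lower on that footing. The 9 genes this added, Robo2, Sema4a, Sema4f and Sema6d among the higher and Plxnc1, Sema4g, Epha3, Efna3 and Ntn5 among the lower, were all under 1 RPKM in both libraries. On the higher side, Epha2 (log2 change 1.04) was just past 2-fold, and Epha7 (0.92) and Efnb1 (0.87) were just short of it. On the lower side, Ephb6 (-1.19) was just past 2-fold and Plxnd1 (-0.83) was just short of it.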

How the data were processed

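Strand-specific mRNA-seq of 1 Dnmt1+/+ and 1 Dnmt1-/- MEF library was analysed from the table of RPKM values that the authors deposited. The authors used TopHat for mapping to mm9, Cufflinks for transcript assembly and Cuffdiff for the RPKM; program versions, any further scaling of the libraries, and the use of strand in assigning reads are not given in the sources used here. The table also holds the authors' fold changes and p-values, which were not used. RPKM carry no counts, so depth gave no interval per gene.

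From the RPKM, log2(RPKM + 0.1) was compared between libraries for entries with status OK, a symbol and 1 RPKM or more in either library, with a call at more than 2-fold. No test was run. Genes given in full were those past 2-fold, the highest of each family, those at 0 in 1 library, and at most 5 signalling genes per direction. Members and lists were chosen with earlier results of these data known, and the lists are no independent evidence.

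Coordinates are 1-based in mm9 from GENCODE, matched for 66 of 67 entries. Promoters are RefSeq windows (GRCm38.p6; 58 of 67 matched by symbol). CG was searched on the printed strand, which counts both strands since CG is its own complement. Other pseudocounts, thresholds, filters and scalings were tried. The code that counts calls was checked on values without noise, with changes past 2-fold set in advance. That outcome was fixed by construction, so it bears on the code only and not on the calls. Python 3.11.15, pandas 2.3.3, numpy 2.4.6 and matplotlib 3.10.9 were used.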

Additional observations from a re-analysis of the deposited data

How the results depend on the processing

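The 6 guidance genes called higher became 10 with no filter on low RPKM, 10 at a 1.5-fold threshold and 2 at 4-fold. The 10 called lower became 15 with no filter, 14 at 1.5-fold, 8 with a pseudocount of 1 and 2 at 4-fold. Over all genes kept, 14.1% were higher and 23.7% lower at 1.5-fold, and 4.45% and 3.44% at 4-fold. Those shares were 9.92% and 11.1% with no filter, and 6.96% and 7.12% with a pseudocount of 1. The guidance genes' median log2 change of -0.24 was -0.22 with each library rescaled to the same summed RPKM, and -0.26 with a filter on the mean RPKM. It was -0.23 with no filter, -0.22 with a pseudocount of 1, and -0.10 with the all-gene median subtracted. Of the co-receptor and signalling genes, the 8 called higher became 5 with a pseudocount of 1, 13 at 1.5-fold and 1 at 4-fold, and the 9 called lower became 15 at 1.5-fold and 4 at 4-fold; their median of -0.13 was -0.11 after rescaling, -0.063 with no filter, and reversed to 0.0062 with the all-gene median subtracted. With a pseudocount of 1, Efna1, Epha2 and Sema6c were no longer past 2-fold, and with the all-gene median subtracted Efnb1 (1.01) and Epha7 (1.06) passed it. With a filter on the mean RPKM, Sema6b was no longer kept, leaving 5 genes called higher. None of the guidance genes past 2-fold changed sign under the settings that kept them. Each of these shifts follows from the setting's own construction. With 1 library per genotype, no library could be left out. No paired analysis was possible because each genotype has 1 library and no test was made.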

Other observations

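Some guidance genes shared their locus with other entries of the table. The locus of Efna3 held 3 entries without a gene symbol, at 1.06 and 0.724 RPKM, 1.97 and 0.532 RPKM, and 1.99 and 1.52 RPKM in Dnmt1+/+ and Dnmt1-/- MEFs, each above Efna3 itself in both libraries. The locus of Efna4 held another 2, at 1.89 and 0.427 RPKM and at 2.50 and 1.38 RPKM, and that of Efnb3 held 1, at 0.958 and 1.61 RPKM. The 5 entries at Efna3 and Efna4 were below their Dnmt1+/+ value, as those genes were, and the entry at Efnb3 was above it, as Efnb3 was. The microRNA entries Mir218-1 and Mir218-2, within Slit2 and Slit3, were listed at 0 in both libraries. These were mRNA libraries, so the values do not measure mature microRNAs.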
